A study of Arabidopsis thaliana with 16 samples.

Results

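A set of 33 Arabidopsis thaliana genes had a higher array signal after salt in zone 4 of the seedling root, the piece in which root hairs emerge, and no comparable rise in the 3 pieces nearer the tip. The genes were chosen by their salt differences in these same arrays. A gene was taken when the mean log2(signal + 16) on NaCl exceeded that on standard medium by at least 1.2 in zone 4, with both NaCl arrays above both standard arrays, and when the same difference was below 0.5 in each of zones 1, 2 and 3. Of 22746 probe sets without controls, 13513 named exactly 1 gene, and 33 of these met the rule. A further 35 probe sets met it but named several genes (1) or none (34) and are not described. The zone 4 rises and the lack of a rise elsewhere are therefore the basis of the choice and not findings, and they are given without a test.

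Roots of Columbia ecotype seedlings, 5 days old, were measured on Affymetrix ATH1 arrays 1 h after transfer to fresh standard medium or to the same medium with 140 mM NaCl. Each root was divided into successive pieces along its length. Zone 1 was about 150 µm of tip, and zone 2 about 200 µm, up to the approximate end of the meristem. Zone 3 was 200 to 300 µm and stopped short of the emerging hairs, and zone 4 was about 1 mm above zone 3. Each of the 8 groups had 2 arrays, 16 in all, and each array was made from about 15 pooled pieces. All groups carried the same genotype, and the standard groups had been transferred too. The labels do not say whether replicates came from separate cultures, so the p-values below may measure technical spread only. Median signals per array lay between 58.57 and 76.93, the correlation of paired arrays between 0.9811 and 0.9859, and no array stood apart.

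Along a root, cells leave the meristem, elongate, and then mature as the epidermis sends out hairs and the inner tissues take on their barriers and conducting strands. Sodium chloride imposes an osmotic load at once and an ionic load as the ions enter, and the root answers with hormone signalling, changes in wall extension and altered transport. The response is known to differ between zones and cell layers.

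In zone 4 the median of the 33 differences was 1.47 log2 units, with a range of 1.23 to 2.11. The corresponding medians were -0.12 in zone 1, -0.07 in zone 2 and -0.03 in zone 3. In all 3 of these zones 23 genes stayed within 0.5 log2 units of the standard level, and 6 genes were lower on NaCl by at least 1 log2 unit in one of them. Across all 17099 probe sets tested with limma, 5.5% were higher on NaCl in zone 4 at an adjusted p under 0.05 and 6.56% were lower. The 32 genes that passed the filter on low signal were all among the higher ones, and since the rule chose them on this same difference nothing is read from that count. The remaining gene, AT5G47800, did not pass the filter because only 1 of its 16 arrays exceeded the filter level, a signal of 41.357.

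**Figure D1:**
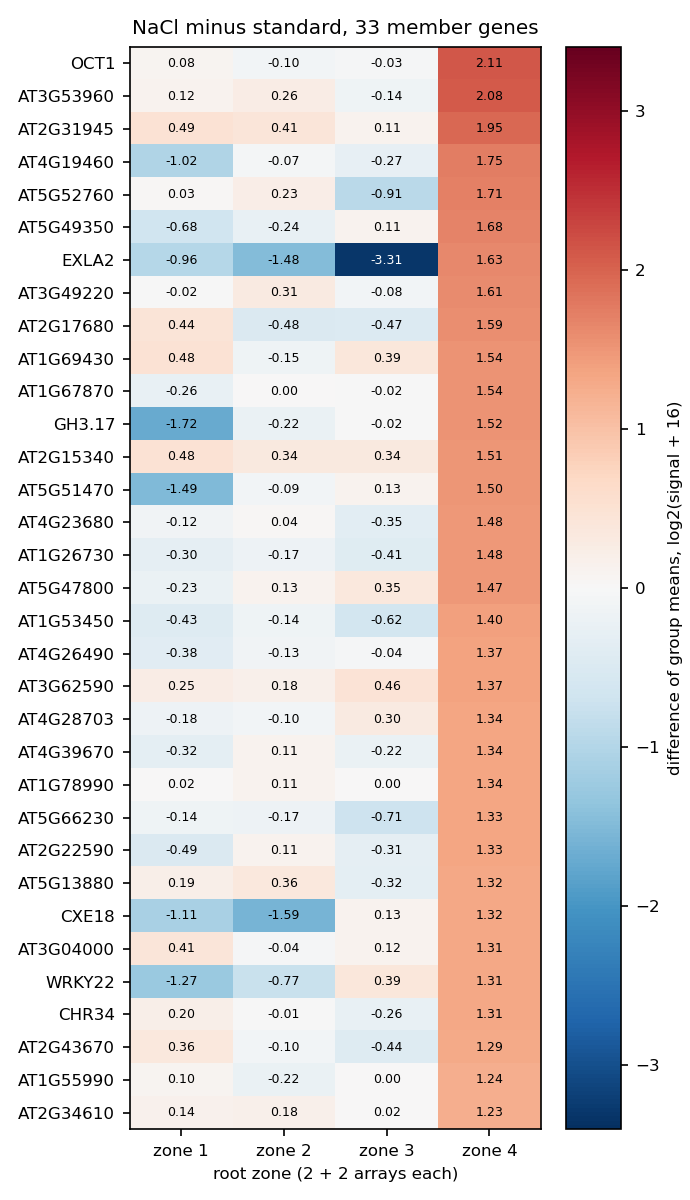
Difference in log2(signal + 16), NaCl minus standard, for each of the 33 genes in each zone (means of 2 arrays a group). Zone 4 differences run from 1.23 to 2.11 by the rule that chose the genes. Differences in the other zones lie below 0.5 by the same rule but reach down to -3.31.

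Markers of hair-forming cells moved the other way in the same zone. Of 10 root hair genes on the list, 4 were on the table of named probe sets, and all 4 were lower on NaCl in zone 4, a call made for 6.56% of all probe sets. EXPA18 fell by 1.74 (limma, adjusted p = 3.44e-05), EXPA7 by 1.43 (adjusted p = 0.00113), XTH26 by 1.42 (adjusted p = 0.00272) and SCN1 by 0.48 (adjusted p = 0.0361) on the log2 scale. The SCN1 call was lost when any 1 of the zone 4 arrays was left out (adjusted p from 0.0551 to 0.222), and the XTH26 call was lost without standard replicate 7 (adjusted p = 0.0525). Their summed signal in zone 4 was 8123 to 8237 on standard medium and 2935 to 3515 on NaCl, whereas in zone 3 it was 5136 to 5820 on standard medium and 9641 to 10150 on NaCl. In zone 1 the media overlapped, at 504 to 609.5 against 474.6 to 592.2 on NaCl, and in zone 2 they read 984.3 to 1061 against 1149 to 1271. The sums of zones 1 and 2 mainly follow SCN1, with means of 489.8 and 493.3 on NaCl in zone 1 and 972.1 and 1133 in zone 2. EXPA7, EXPA18 and XTH26 had group means of at most 44.66 in these zones. None of the 4 markers was at 0 in any group, and the part of this shift in the rises of the 33 genes was not tested. In tissue pieces such as these, fewer cells of a type and less RNA per cell cannot be told apart, and the same holds for more.

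**Figure D2:**
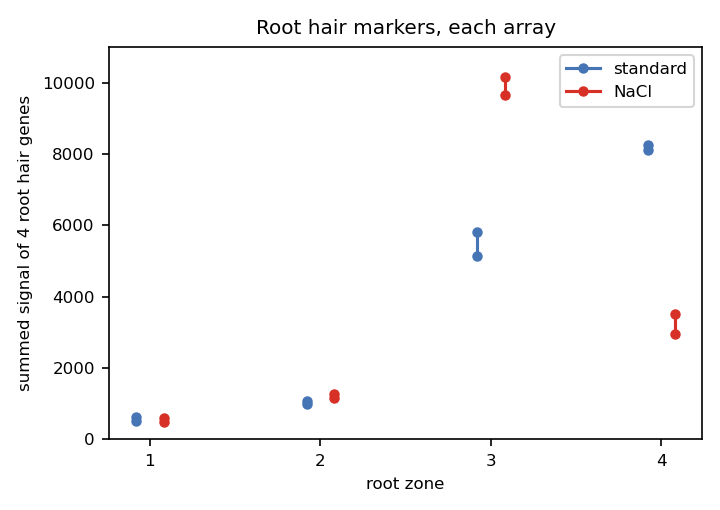
Summed signal of the 4 root hair genes measured (EXPA7, EXPA18, XTH26, SCN1), one point per array, by zone and medium. In zone 4 the NaCl arrays (2935 and 3515) sit below the standard arrays (8123 and 8237), and in zone 3 they sit above.

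Of the other lists of cell type and response genes, few members were on the table of named probe sets: 15 of 202 genes written over 16 lists were found, and none of the 33 genes was among them. The meristem list was represented by AUR1, a mitotic kinase, with zone 4 signals of 183.9 and 192.6 on standard medium and 206.1 and 242.5 on NaCl and a difference of 0.23 (adjusted p = 0.464). Of the 4 tested genes of the abscisic acid and dehydration list, LEA4-5, a desiccation protein, rose by 4.71 log2 units (adjusted p = 6.6e-10) and LTI30, a dehydrin, by 1.05 (adjusted p = 6.22e-06). COR47 (0.14, adjusted p = 0.681) and COR15B (0.35, adjusted p = 0.439) did not pass. Among early stress regulators WRKY6 rose by 0.97 (SE 0.22, adjusted p = 0.00761), a call lost when zone 4 NaCl replicate 1 (adjusted p = 0.0684) or standard replicate 8 (adjusted p = 0.069) was left out, while ZAT10 (1.04, adjusted p = 0.136) and WRKY53 (0.52, adjusted p = 0.175) did not pass. ZAT10 did pass when zone 2 standard replicate 3 (adjusted p = 0.0262) or 4 (adjusted p = 0.0258) was left out, with the zone 4 arrays alone (adjusted p = 0.00932) and with a constant of 64 (adjusted p = 0.0273), where WRKY53 passed too (adjusted p = 0.0444). Markers of endodermis, xylem, phloem and root cap were not measured under a name, so the zone label could be checked only through the root hair genes. Their summed signal was highest in zone 4 among the standard groups and in zone 3 among the NaCl groups. XTH26 alone had its highest group mean in zone 4 on both media (168.1 on standard medium and 52.27 on NaCl). SCN1 had its highest in zone 3 on both (2018 and 2413). The root hair genes thus differed among themselves on both media, and their sum does not settle the label of zone 4.

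Of the 33 genes 6 carry a name in the annotation used, and these are described first, by role. OCT1 encodes an organic cation/carnitine transporter, a membrane carrier of small charged molecules. Its signal was 2.98 and 3.01 on the standard arrays of zone 4 and 42.9 and 98.2 on the NaCl arrays. The 12 arrays of the other zones read 0.893 to 3.82. Only the salted zone 4 arrays passed the filter level, and the groups did not overlap. The difference of 2.11 (SE 0.34) was the largest of the 33, and its size depends on the constant added before the logarithm, since it was 4.05 with 1 and 0.97 with 64. In the same family, chosen for comparison after the 33 genes were seen, OCT5 fell by 1.00 in zone 4 (limma, adjusted p = 0.00011) and OCT4 differed by 0.22 without passing.

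EXLA2 encodes an expansin-like protein, a relative of the expansins that loosen cell walls. On standard medium its signal was 56.2 and 65.0 in zone 1, 148 and 178 in zone 2, and 289 and 332 in zone 3, and then 2.15 and 2.72 in zone 4. On NaCl it read 57.8 and 4.97 in zone 1, 51.0 and 44.7 in zone 2, 33.6 and 5.90 in zone 3, and 33.5 and 49.6 in zone 4. The gradient toward zone 3 seen on standard medium was absent on NaCl, and the standard and NaCl arrays did not overlap in zones 2, 3 and 4. Its differences were -0.96, -1.48, -3.31 and 1.63 (SE 0.43 for zone 4) from zone 1 to zone 4, and the last was 3.61 with a constant of 1 and 0.66 with 64. The salted zone 4 signal stayed below that of zones 2 and 3 on standard medium.

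The 2 related genes on the array had patterns of their own, looked up after EXLA2 was seen. EXLA1 differed by -1.60, -1.63, -0.14 and 0.61 from zone 1 to zone 4, and the zone 4 value passed the test (limma, adjusted p = 0.0462). EXLA3 differed by 0.03, -0.10, -1.92 and 0.65, and its zone 4 value did not pass (adjusted p = 0.241). Of the other 14 expansin and expansin-like probe sets tested, EXLA1 was higher in zone 4 (5.5% of all probe sets), the root hair expansins EXPA7 and EXPA18 were lower (6.56% of all), and 11 did not pass.

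GH3.17 encodes an enzyme that joins the auxin indole-3-acetic acid to an amino acid, which takes it out of the active pool. Its zone 4 signal was 107 and 152 on standard medium and 374 and 420.4 on NaCl. In zone 1 it was 421 and 480.2 on standard medium and 139 and 112 on NaCl. The media did not overlap in either zone and changed places between them, with the zone of the higher signal moving from the tip to zone 4. Zones 2 and 3 read between 103 and 216 on both media, with overlapping arrays. The differences were -1.72, -0.22, -0.02 and 1.52 (SE 0.24 for zone 4). Of the other family members, GH3.3 fell by 1.85 in zone 4 (limma, adjusted p = 0.0021) and GH3.1 differed by 0.18 without passing.

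WRKY22 encodes a transcription factor of the WRKY class known from the response to microbial patterns. Its signal in zone 4 was 103 and 85.4 on standard medium and 289 and 227 on NaCl. In zone 1 it was 161 and 118 on standard medium and 44.8 and 50.7 on NaCl, and in zone 2 it was 89.5 and 61.6 against 40.03 and 34.4. In zone 3 it was 67.51 and 44.6 on standard medium and 82.15 and 72.07 on NaCl. The NaCl arrays thus lay below the standard arrays in zones 1 and 2 and above them in zones 3 and 4. The differences were -1.27, -0.77, 0.39 and 1.31 (SE 0.23 for zone 4). Of the other 4 WRKY probe sets tested, WRKY6 was higher in zone 4 (5.5% of all probe sets) and 3 did not pass.

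CXE18 encodes a carboxylesterase, a hydrolase of ester bonds. Its signal in zone 4 was 136 and 176 on standard medium and 301 and 558 on NaCl. In zone 1 it was 119 and 97.3 on standard medium and 45.4 and 37.3 on NaCl, and in zone 2 it was 239.8 and 251 against 79.3 and 63.7. No arrays overlapped between media in these 3 zones, and the tip zones and zone 4 differed in direction. The differences were -1.11, -1.59, 0.13 and 1.32 (SE 0.25 for zone 4). The other 2 carboxylesterases with this name did not pass in zone 4.

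CHR34 is annotated as a chromatin remodelling gene. Its zone 4 signal was 7.92 and 22.9 on standard medium and 64.9 and 54.4 on NaCl, and all other arrays of the series lay below the filter level. The zone 4 difference was 1.31 (2.05 with a constant of 1 and 0.64 with 64), and the 5 other CHR probe sets tested did not pass in zone 4.

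**Figure D3:**
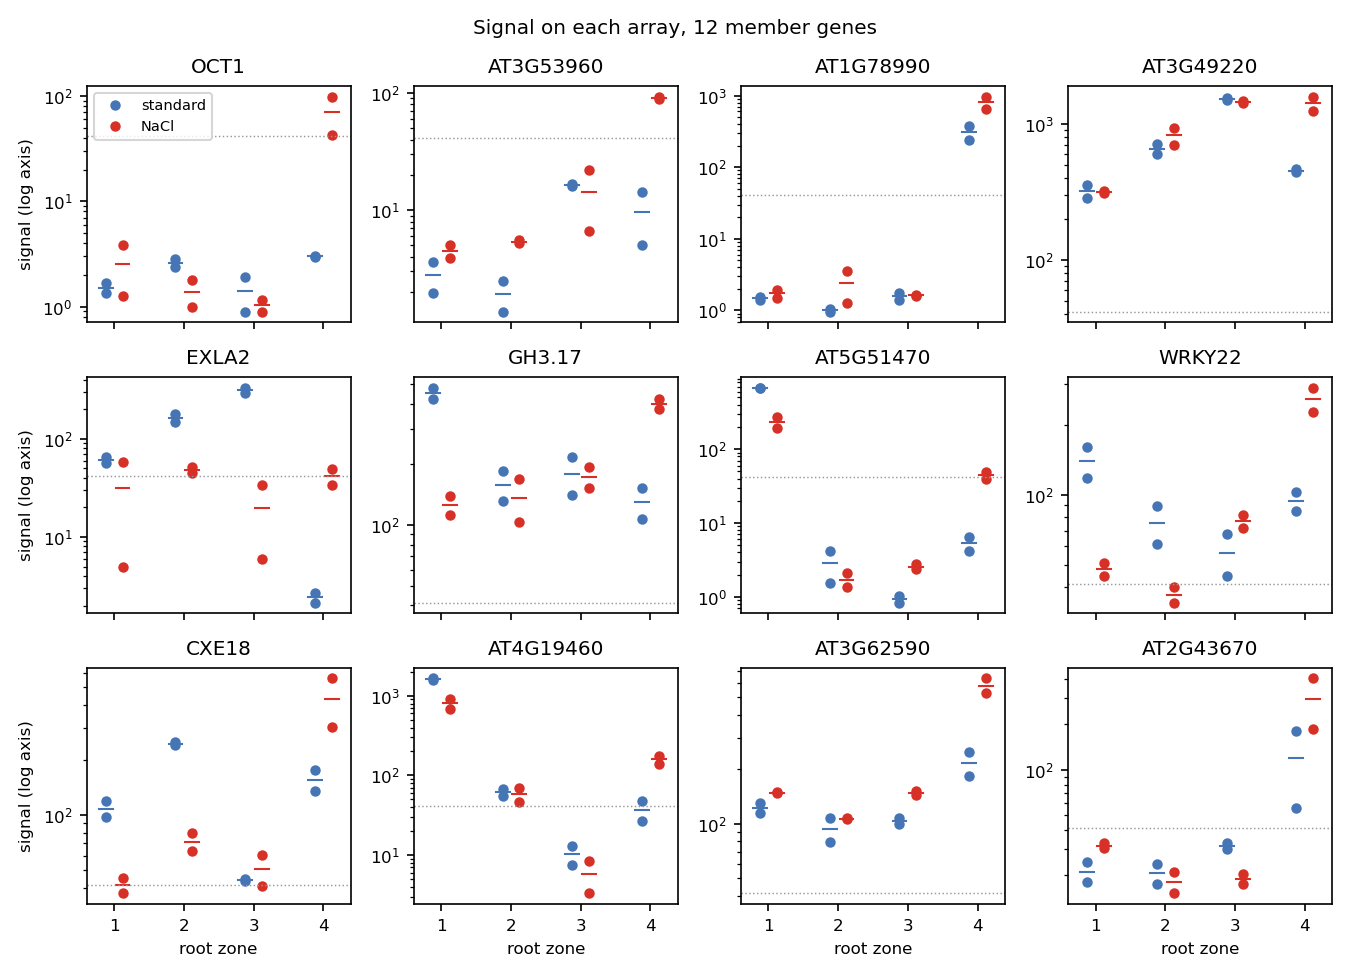
Signal on each array (log axis) by zone and medium for 12 of the 33 genes. Points are arrays, short lines are group means, and the dotted line is the filter level of 41.357. In zone 4 the NaCl points lie above the standard points for every gene shown. In zone 1 they lie below them for GH3.17, WRKY22, CXE18, AT4G19460 and AT5G51470.

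The other 27 genes carry only a locus name in the annotation used, so no role is given for them, and they are grouped by their signals across the zones. A first group was near background wherever salt and zone 4 did not coincide. For 6 of the 33 genes all 14 arrays outside the salted zone 4 group read below the filter level: OCT1, CHR34, AT3G53960, AT5G47800, AT4G26490 and AT4G28703. AT3G53960 read 5.04 and 14.2 on the standard arrays of zone 4 and 92.8 and 88.6 on the NaCl arrays, with 1.36 to 22.1 elsewhere. The difference was 2.08 (SE 0.31), one of 2 above 2. The zone 4 NaCl arrays of this gene were nearly equal and stood clear of all others.

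AT4G26490 read 28.2 and 29.7 in zone 4 on standard medium against 86.2 and 116 on NaCl (difference 1.37). AT4G28703 read 30.6 and 12.3 against 80.5 and 72.0 (1.34). AT5G47800 read 4.22 and 3.56 against 32.4 and 46.8 (1.47), so that 1 of its NaCl arrays also lay below the filter level. These signals are low on the array's scale, and the differences rest on arrays near background. AT2G17680, with 24.4 and 19.3 against 91.9 and 104 (1.59), and AT3G04000, with 13.6 and 28.7 against 60.8 and 90.0 (1.31), had the same shape apart from 1 array each above the filter level in zone 3.

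A second group was already confined to zone 4 on standard medium, and its signal there was higher on NaCl. AT1G78990 read 239.7 and 378 on the standard arrays of zone 4 and 641 and 963 on the NaCl arrays, while the other 12 arrays read 0.959 to 3.597. AT5G49350 read 327 and 715 against 1047 and 2407, with 1.98 to 25.9 elsewhere. AT1G55990 read 149.9 and 136 against 507 and 254, and AT2G34610 read 132 and 114 against 248 and 385. In these 4 genes zone 4 stood clear of all other zones on both media. The differences were 1.34, 1.68, 1.24 and 1.23, in the same order.

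AT4G23680 read 174 and 489 in zone 4 on standard medium and 527 and 1367 on NaCl, AT2G43670 read 56.0 and 182 against 188 and 404, and AT1G67870 read 13.7 and 64.1 against 73.5 and 208. In each of these the replicates of a medium differed more than the nearest arrays of different media. The lowest NaCl array exceeded the highest standard array by a ratio of 1.08, 1.03 and 1.15, respectively, and the ratio for AT5G49350 was 1.46. These are the 4 genes of the 33 in which that ratio was under 1.5. Over all 33 genes NaCl replicate 2 exceeded replicate 1 in 20, and standard replicate 8 exceeded replicate 7 in 17.

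Another group had its highest signal in the root tip on standard medium. AT4G19460 read 1660 and 1583 in zone 1, 68.1 and 54.6 in zone 2, 13.0 and 7.49 in zone 3 and 47.4 and 26.4 in zone 4 on standard medium. On NaCl it read 679 and 924, 46.9 and 69.8, 3.29 and 8.37, and 177 and 140.5. The tip signal was lower on NaCl and the zone 4 signal higher, with no overlap in either zone, although zone 1 remained the highest. Its differences in zones 1 and 4 were -1.02 and 1.75 (SE 0.24).

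AT5G51470 had the same arrangement. It read 671 and 682 in zone 1 on standard medium against 192 and 276 on NaCl, and 6.41 and 4.19 in zone 4 against 39.5 and 48.9, with 0.840 to 4.16 in zones 2 and 3. The differences were -1.49 and 1.5 (SE 0.24) in zones 1 and 4, the latter 2.86 with a constant of 1 and 0.64 with 64. AT5G66230 read 149 and 130.1 in zone 1 and 9.84 and 9.77 in zone 4 on standard medium, and 60.9 and 38.7 in zone 4 on NaCl (1.33), with a zone 1 difference of -0.14. In these 3 genes the salted zone 4 signal stayed under that of the unsalted tip. Together with EXLA2, GH3.17, CXE18 and WRKY22, the first 2 make up the 6 genes lower by at least 1 log2 unit in a zone nearer the tip.

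A further group was lowest in zone 4 on standard medium without a steep peak at the tip. AT1G69430 read 6.46 and 5.91 in zone 4 on standard medium and 53.1 and 44.1 on NaCl (1.54, or 2.78 with a constant of 1 and 0.68 with 64), against 20.9 to 78.0 in the other zones. AT1G53450 read 8.05 and 7.98 against 47.6 and 47.5 (1.40), with 31.9 to 89.0 elsewhere. In both the salted zone 4 arrays fell inside the range of the other zones. Including EXLA2, 7 of the 33 genes had their lowest standard group mean in zone 4, against 5033 of all 17099 tested probe sets.

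The remaining genes fell into none of these groups. AT3G49220 read 358 and 285 in zone 1, 607 and 715 in zone 2, 1567 and 1519 in zone 3 and 466 and 440.5 in zone 4 on standard medium. In zone 4 on NaCl it read 1257 and 1594, which brought the group mean of 1426 ± 239 (SD, n = 2) near that of zone 3 on standard medium, 1543 ± 33.6. The difference was 1.61 (SE 0.16) and hardly moved with the added constant, from 1.64 with 1 to 1.52 with 64.

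AT4G39670 read 430.4 and 394 in zone 4 on standard medium and 1179 and 968 on NaCl (1.34, SE 0.19), AT3G62590 read 184 and 249.7 against 638 and 526 (1.37, SE 0.18), and AT1G26730 read 132 and 112 against 398 and 339 (1.48, SE 0.26). In these 3 genes the salted zone 4 arrays were the highest of the 16. AT2G31945 read 28.3 and 38.9 against 161 and 188 (1.95, SE 0.23), after 49.6 and 51.4 against 98.3 and 60.5 in zone 1. AT2G31945 also had the zone 1 difference closest to the bound of the rule, 0.49, with no overlap there.

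AT2G15340 read 59.99 and 51.3 in zone 4 against 181 and 195 (1.51), and AT5G13880 read 30.4 and 38.7 against 80.2 and 149.5 (1.32), with its zone 2 arrays at 75.0 and above on both media. AT2G22590 read 16.3 and 32.1 in zone 4 against 75.9 and 90.5 (1.33), and its zone 2 arrays lay at 107 to 168. AT5G52760 read 90.8 and 34.2 in zone 4 against 313 and 159 (1.71, SE 0.36), and in zone 3 it read 56.9 and 93.9 against 28.9 and 34.7 (-0.91). Its standard arrays in zone 4 differed from each other more than those in zone 3.

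**Figure D4:**
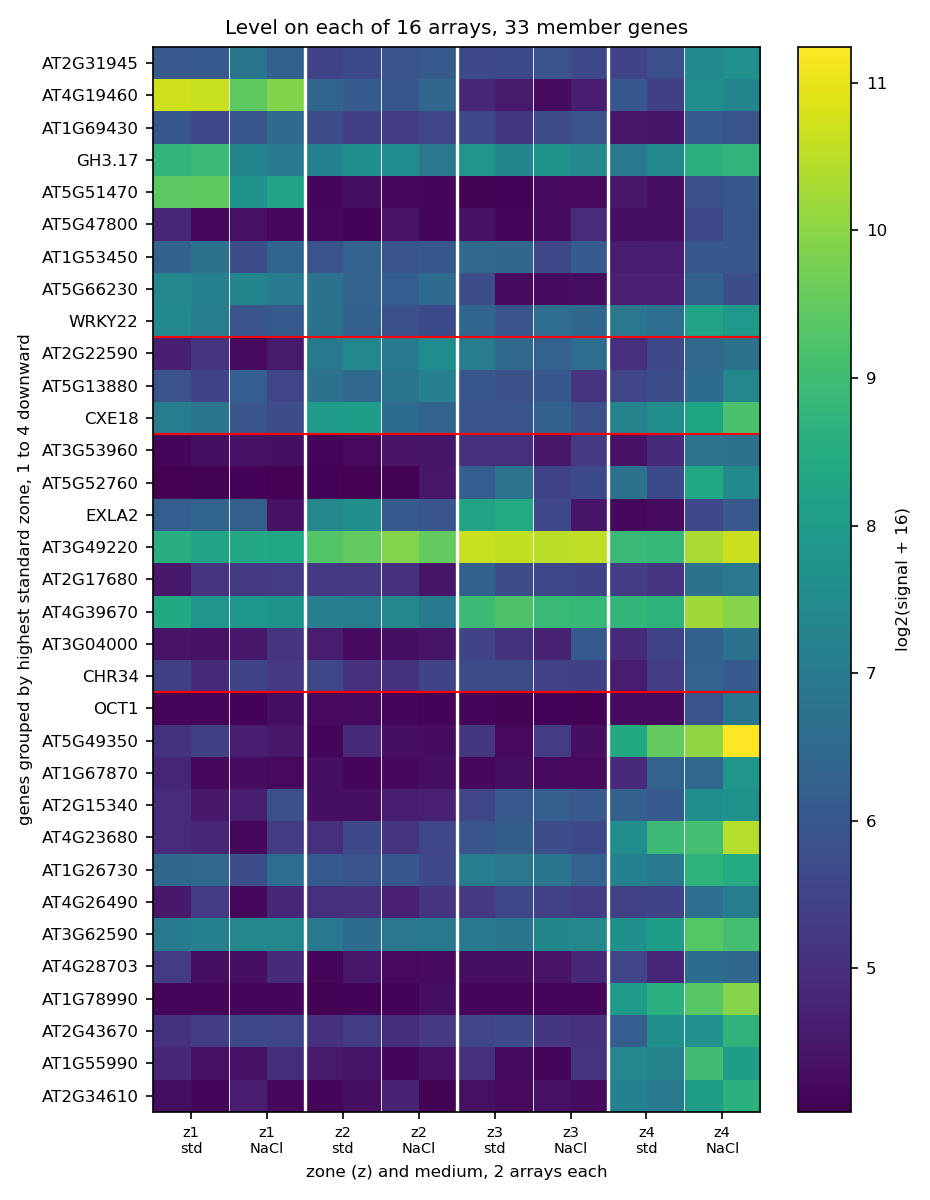
Log2(signal + 16) of the 33 genes (rows) on the 16 arrays (columns), to be read along a row. In 23 rows both salted zone 4 arrays are the highest of the 16. In 12 rows all arrays of zones 1 to 3 lie below the filter level.

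Counted over the 33 genes, the salted zone 4 arrays were the highest of the 16 in 23, and the mean of salted zone 4 exceeded every standard zone mean in 25. The median signal in zone 4 was 36.92 on standard medium and 158.9 on NaCl. On standard medium 18 genes (54.5%) had a zone 4 mean below the filter level, against 16.8% of all tested probe sets, and in 9 genes it was below 16, the constant added to the signal. The standard group mean was highest in zone 1 for 9 genes, zone 2 for 3, zone 3 for 8 and zone 4 for 13. Among all 17099 tested probe sets the corresponding counts were 6088, 2419, 3320 and 5272. The zone 4 mean on standard medium is part of the difference that chose the genes. The counts for the 33 genes therefore describe the set and are not tested. In at least 1 of zones 1 to 3, both NaCl arrays lay below both standard arrays in 19 of the 33 genes and in 48% of all 22746 probe sets. Both lay above in 13 of the 33 and in 56.3% of all probe sets, and the bound of 0.5 limits that second count.

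Another 126 genes, by the same zone 4 criterion, had a rise of at least 0.5 in one or more of the other zones as well. Their median zone 4 difference was 1.6, and their medians in zones 1, 2 and 3 were 0.44, 0.65 and 1.32. Their median zone 4 signal went from 101 on standard medium to 385.1 on NaCl, and 31 of them (24.6%) had a standard zone 4 mean below the filter level. The standard mean was highest in zone 4 for 69 of the 126, for 13 of the 33 and for 5272 of all 17099 tested probe sets. The split between the sets is drawn by the salt differences themselves.

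The position of the genes along the root could be tested apart from the rule, though not wholly apart from the filter on low signal. Zone 3 minus zone 1, averaged over both media, does not enter the choice, and as a contrast it is orthogonal to the salt differences within zones. Over all 17099 tested probe sets 34.2% were higher in zone 3 and 40.1% lower. Of the 32 genes tested, 12 (37.5%) were higher, 7 (21.9%) were lower and 13 did not pass. In 9 of the 33 genes fewer than 2 of the 14 arrays outside salted zone 4 exceeded the filter level. Those of the 9 that were tested therefore passed the filter only through salted zone 4. They include AT3G53960, AT2G17680, AT4G26490 and AT3G04000, all called higher from signals near background. The share of higher genes was near the background. The 7 lower became 4 without zone 3 standard replicate 6 or without zone 3 NaCl replicate 2, and the 12 higher became 8 without zone 1 NaCl replicate 1. In 12 of the 33 no array of zones 1 to 3 exceeded the filter level, and among the 19 with at least 2 such arrays 8 were higher, 7 were lower and 4 did not pass. The median over the genes was -0.03, and over all tested probe sets it was -0.08. Of the 123 tested genes of the comparison set, 64 (52%) were higher, 26 (21.1%) were lower and 33 did not pass.

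The strongest position differences belonged to genes already described by their signals. Each value averages both media, and the media did not always run alike. GH3.17 group means went from 450.7 in zone 1 to 178.6 in zone 3 on standard medium, but from 125.6 to 173.7 on NaCl. CXE18, also called lower, went from 108.4 to 44.25 and from 41.36 to 50.83, with overlapping NaCl arrays. EXLA2 went from 60.6 to 310.4 on standard medium and from 31.38 to 19.74 on NaCl, where the arrays overlapped. AT4G19460 was lower in zone 3 than in zone 1 (-5.6 log2 units, SE 0.17, limma adjusted p = 1.29e-14), as were AT5G51470 (-4.54, SE 0.17, adjusted p = 1.34e-13) and AT5G66230 (-2.57, SE 0.25, adjusted p = 4.56e-08). AT2G31945 (-0.60, adjusted p = 0.00288) and GH3.17 (-0.43, adjusted p = 0.0319) were lower by less. The first of these calls was lost when the standard arrays alone were fitted (-0.41, adjusted p = 0.144), and the second in 8 other settings. AT3G49220 was higher in zone 3 by 2.19 (SE 0.11, adjusted p = 1.07e-11), AT2G22590 by 1.97 (SE 0.20, adjusted p = 8.8e-08), AT5G52760 by 1.96 (SE 0.25, adjusted p = 1.79e-06), AT4G39670 by 1.03 (SE 0.14, adjusted p = 2.2e-06) and AT2G15340 by 0.98 (SE 0.23, adjusted p = 0.000834). EXLA2 was higher by 0.92 (SE 0.30, adjusted p = 0.0118), and this call was lost with a constant of 1 (adjusted p = 0.123), without zone 1 NaCl replicate 2 (adjusted p = 0.09) and without zone 3 NaCl replicate 1 (adjusted p = 0.0835).

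The zone 4 rise was also read on arrays left out of the choice. The rule was applied 4 times with 1 zone 4 array omitted, and the omitted array was then compared with both arrays of the other medium. The other 3 zone 4 arrays were shared between choosing and reading, so a high share is partly built in. All probe sets were not chosen in this way, so their share is not a matched background. The counts are descriptions and do not replicate the rise. Without standard replicate 7 the rule chose 47 genes, and the omitted array lay below both NaCl arrays in 42 of them (89.4%), against 33.9% of all probe sets. Without standard replicate 8 it chose 59, of which 53 (89.8%) lay apart, against 34.9%. Without NaCl replicate 1 it chose 63, of which 56 (88.9%) lay apart, against 32%, and without NaCl replicate 2 it chose 38, of which 38 (100%) lay apart, against 36.8%.

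The omitted array gave a smaller rise than the arrays used for the choice each time. The medians were 1.12 against 1.34 without standard replicate 7, 0.85 against 1.48 without standard replicate 8, 0.93 against 1.41 without NaCl replicate 1 and 1.2 against 1.44 without NaCl replicate 2. Over all probe sets the omitted arrays had medians between -0.03 and 0. Between 23 and 30 of the genes chosen each time were among the 33.

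**Figure D5:**
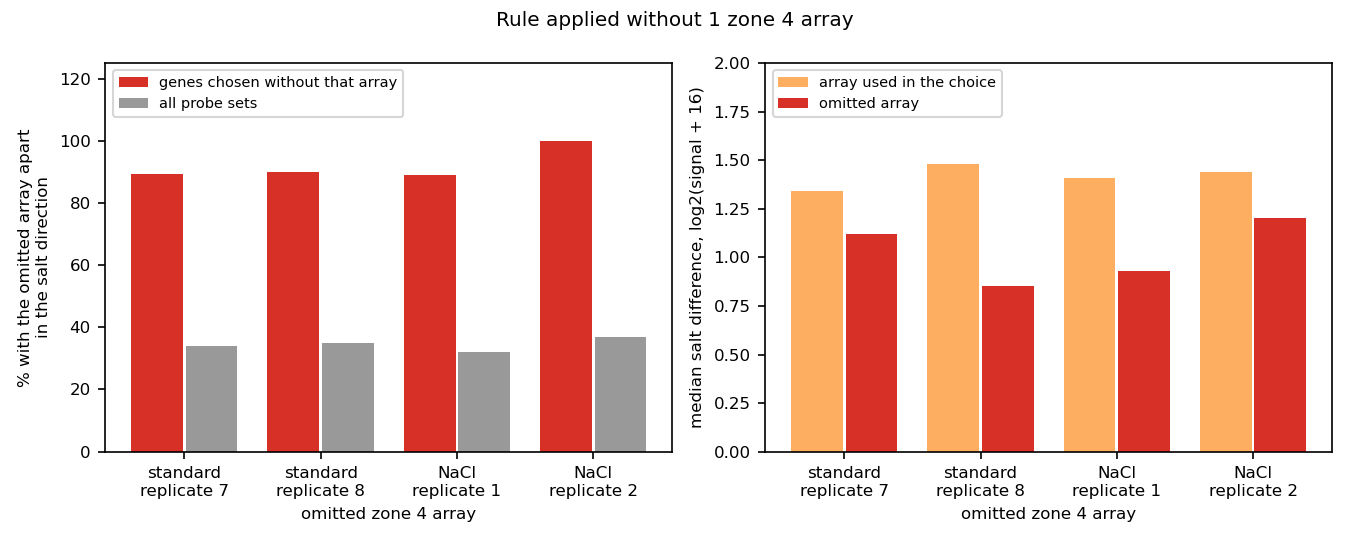
Rule applied without 1 zone 4 array. Left, percentage with the omitted array apart in the salt direction, for the genes chosen without it and for all probe sets. Right, median salt difference of the chosen genes on the array used in the choice and on the omitted array. Medians on the omitted arrays (0.85 to 1.2) lie below those on the arrays used (1.34 to 1.48). The other zone 4 arrays were shared between choosing and reading.

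The genes nearest to the bounds of the rule differed little in their values. Just inside the zone 4 bound stood AT2G43670 (1.29), AT1G55990 (1.24) and AT2G34610 (1.23). Just outside stood AT5G42290 (1.2 after rounding, just below the bound), AT4G24140 (1.19) and AT2G29260 (1.18). For the bound on the other zones, AT2G31945 (0.49), AT2G15340 (0.48) and AT1G69430 (0.48) were just inside. IAA30, an auxin response repressor, was just outside with a largest difference of 0.53 in another zone and 1.22 in zone 4, followed by AT4G03140 (0.57 and 1.82) and AT5G50360 (0.59 and 1.71). AT4G24140 read 392 and 730.4 on the standard arrays of zone 4 and 843 and 1817 on the NaCl arrays, with no array above 30.9 in the other zones, the same shape as the genes confined to zone 4.

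The genes lay on all 5 chromosomes, with 8, 7, 4, 7 and 7 on chromosomes 1 to 5. Probe sets naming 1 gene numbered 3451, 2200, 2746, 1962 and 3008 on the same chromosomes. By the gene order of the TAIR10.1 annotation, 34 of the 66 immediate neighbours of the 33 genes were on the table of named probe sets. Of these, 28 were tested. In zone 4, 3 of the 28 passed as higher (limma, 5.5% of all probe sets) and 1 as lower (6.56% of all). Their median was 0.06, and none was itself among the 33. AT2G31940, beside AT2G31945, differed by 2.21, 1.73, 1.06 and 1.29 from zone 1 to zone 4 (zone 4 adjusted p = 0.00043), so its rise was not limited to zone 4. AT5G52750, beside AT5G52760, differed by 0.84 in zone 4 (adjusted p = 0.0465), and AT4G39675, beside AT4G39670, by 0.83 (adjusted p = 0.0297) and by 1.76 in zone 3. The lower one was ATERDJ3B, beside AT3G62590, at -0.71 (adjusted p = 0.00218).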

How the data were processed

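The deposited table held 1 signal intensity per probe set and array on a linear scale. Per the submitters' processing notes the authors used MAS5, and per the labels RNA was amplified in 2 cycles and labelled with biotin. The trimmed mean of every array was 250.02 to 250.03, so the deposited values share a scaling. Detection calls, scan dates and the genome build are not given in the sources used here, so no batch could be examined. No column lacked a sample.

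Intensities were analysed as log2(signal + 16) with no further normalization. Fold changes on this scale understate those of low signals. The 64 control probe sets were left out. The fit took probe sets with 2 or more arrays above the 40th percentile of all signals (41.357), which left 17099. Gene names came from the platform's probe table and the TAIR10.1 annotation. Of 22746 probe sets, 13513 named 1 gene, 503 several and 8730 none.

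One model with 8 group means was fitted to the 16 arrays with limma 3.58.1 in R 4.3.3 (lmFit, eBayes with a trend, 8 residual and 8.607 prior degrees of freedom). Tests were two-sided, with Benjamini-Hochberg adjustment over all tested probe sets and a threshold of 0.05. The fit was tested on simulated data. Standard errors come from this fit, and with 2 arrays a group their number limits the precision.

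The genes, lists and tests were chosen with earlier results of these data known. Genes were named by rule: the 20 largest zone 4 differences, the 3 on each side of each bound, up to 5 with the smallest p in each direction of zone 3 minus zone 1, up to 4 per list, and genes lower by 1 in another zone. Further genes of the 33 and their families and neighbours were named after their values were seen. Lists with no gene on the named table covered root cap, endodermis, xylem, phloem, abscisic acid signalling, jasmonate, ethylene, ion transport, suberin and phenylpropanoids. On the heat shock list HSP22.0 was not tested, and SWEET11 differed by -0.05 in zone 4 (adjusted p = 0.939). Alternatives changed the constant, the filter, the scaling, the bounds, the variance trend, the arrays fitted and each array in turn. Promoter sequences were not analysed here.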

Additional observations from a re-analysis of the deposited data

Results flagged for a closer look

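Of the 33 genes, 19 had both NaCl arrays below both standard arrays in at least 1 of zones 1 to 3, while in zone 4 all arrays moved the opposite way by the rule that chose the genes. Over all 22746 probe sets the share with such arrays in at least 1 of these zones was 48%. In 13 of the 33 both NaCl arrays lay above instead in at least 1 of these zones. A move below the standard arrays was seen 23 times. The difference between the zones was not tested, because the rule used both sides of it. Values are NaCl minus standard in log2(signal + 16), and several are too small to set apart from the spread of 2 arrays.

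In zone 1, GH3.17 stood at -1.72, AT5G51470 at -1.49, WRKY22 at -1.27, CXE18 at -1.11, AT4G19460 at -1.02, AT5G49350 at -0.68 and AT2G22590 at -0.49. In zone 2, CXE18 stood at -1.59, EXLA2 at -1.48, WRKY22 at -0.77, AT2G17680 at -0.48, AT1G55990 at -0.22 and OCT1 at -0.10. The values of AT5G49350, AT2G22590, AT2G17680, AT1G55990 and OCT1 come from groups with means below the filter level.

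In zone 3, EXLA2 stood at -3.31, AT5G52760 at -0.91, AT1G53450 at -0.62, AT2G17680 at -0.47, AT2G43670 at -0.44, AT1G26730 at -0.41, AT4G23680 at -0.35, CHR34 at -0.26, AT4G39670 at -0.22 and AT3G49220 at -0.08. AT2G43670 and CHR34 were below the filter level on all zone 3 arrays. Both NaCl arrays lay above instead in zone 1 for AT2G31945 (0.49), AT2G17680 (0.44), AT3G04000 (0.41), AT2G43670 (0.36), AT3G62590 (0.25) and AT3G53960 (0.12). In zone 2 they did for AT2G31945 (0.41), AT5G13880 (0.36), AT2G15340 (0.34), AT3G53960 (0.26) and AT1G78990 (0.11). In zone 3 they did for AT3G62590 (0.46), AT1G69430 (0.39), WRKY22 (0.39), AT2G15340 (0.34), AT4G28703 (0.3) and AT5G51470 (0.13).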

How the results depend on the processing

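The number of genes meeting the rule moved with its settings, from 33 to 140 with a constant of 1 (19 shared), 15 with a constant of 64 (10 shared), 78 at a zone 4 bound of 1.0, 13 at 1.5 and 21 with the other zones below 0.3. It was 44 with those zones below 0.7. Of the 33 genes, 32 passed the low-signal filter at the 40th percentile and 22 passed it at the 60th. Quantile normalization gave 38 and median centring 40, and both kept the 33. Leaving out each array in turn gave 30 to 63, with 63 without zone 4 NaCl replicate 1 and 59 without zone 4 standard replicate 8. Only GH3.17, AT1G26730 and AT4G39670 met the rule in all 20 processing and single-array settings.

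The 7 genes lower in zone 3 than in zone 1 became 4 with median centring, with quantile normalization or without a filter, and 4 to 7 without 1 array; the 12 higher became 8 to 12. For zone 4 over all probe sets, the 941 higher became 505 to 960 without 1 array (505 without NaCl replicate 2, 606 without standard replicate 7) and the 1121 lower became 590 to 1144 (644 and 590 without the same arrays). Median centring gave 1049 higher and 952 lower. Zone 3 minus zone 1 over all probe sets gave 5598 to 5872 higher and 6568 to 6872 lower without 1 array. XTH26 lost its zone 4 call with a constant of 1 (adjusted p = 0.221). SCN1 lost its call with median centring (0.0705), without the variance trend (0.0845), with the zone 4 arrays alone (0.108) and without any 1 zone 4 array (0.0551 to 0.222). WRKY22 passed as lower in zone 3 (-1.11, adjusted p = 0.00157) when the standard arrays alone were fitted. Averaged over both media it differed by -0.28 without passing. Its group mean went from 139.4 in zone 1 to 56.05 in zone 3 on standard medium, but from 47.76 to 77.11 on NaCl. No result reversed. The causes were not tested.

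Among zone 1 on standard medium and the NaCl groups, same-numbered arrays showed no shared deviation (correlations from -0.016 to 0.0574). The other standard groups carry other numbers and were not compared. Low correlations cannot show whether same-numbered arrays came from the same roots. With the replicate number as a block, zone 4 gave 932 higher and 1122 lower, zone 3 minus zone 1 gave 5873 and 6852, and among the genes 12 and 6. The planned search for promoter motifs was not run.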
